A study of Mus musculus with 19 samples.

Results

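The comparison described here sets the livers of 6 mice lacking Mat1a and given placebo (KO) against the livers of 8 wild-type mice given placebo (WT), which together are 14 of the 19 arrays of the series. Members were chosen by the genotype and treatment in the sample titles, and no measured value entered the choice. All mice were aged 10 months, and the treatment lasted 8 weeks. The remaining 5 arrays, from KO mice given S-adenosylmethionine (SAMe), entered the fit only to share the estimate of the spread. RNA from each animal was hybridised to 1 array, a 1-colour Illumina mouse BeadChip whose beads carry probes for single genes. The sources used here give neither the sex and strain of the mice, nor the content of the placebo, the extent of the deletion or the BeadChip on which each array lay, and they do not describe the knockout as limited to a cell type.

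Mat1a codes for the catalytic subunit of methionine adenosyltransferases I and III, the enzymes that join methionine and ATP into SAMe in adult hepatocytes. SAMe is the methyl donor for phosphatidylcholine, creatine, DNA, RNA and histones. Once it has given its methyl group it becomes S-adenosylhomocysteine, which is hydrolysed to homocysteine. Homocysteine is remethylated to methionine with betaine or folate or is drawn through transsulfuration to cysteine and glutathione. Mice without this enzyme are known for high blood methionine, low liver SAMe, steatosis and, with age, liver tumours.

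Values are log2 intensities after background correction and quantile normalization. A change is the KO mean minus the WT mean on that scale, SE is its standard error, and SD is the spread between arrays. A gene was called, and is said to have risen or fallen, where the limma adjusted p (Benjamini-Hochberg over all 10831 features tested) was under 0.05. Each gene is read by its brightest probe. Whole liver was measured, so fewer cells of a type and less RNA per cell cannot be told apart. Of 6 hepatocyte markers 5 were measured, all detected on each of the 14 arrays. Ttr, for the thyroxine carrier transthyretin, averaged 12.63 ± 0.12 in KO livers and 12.42 ± 0.12 in WT livers, and Cps1, which opens the urea cycle, 11.44 ± 0.24 and 11.29 ± 0.14 (SD, n = 6 and 8). Apoa1, the main protein of high-density lipoprotein, changed by -0.11 (adjusted p = 0.31). Alb, for albumin, read low at its probe, with 5.90 ± 0.34 in KO livers and 6.49 ± 0.47 in WT livers, and fell by 0.60 (adjusted p = 0.015), a call that ended with the block described next (-0.29, adjusted p = 0.28), while Serpina1a, for alpha-1 antitrypsin, rose by 0.73 (adjusted p = 0.0015) and Tat did not pass the detection filter. Between 25.5% and 31.8% of the 45281 probes were detected on an array, and precision is limited by how many arrays each group has.

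The 14 arrays form 2 sets by the median raw signal, which was over 90 on 4 KO arrays and 1 WT array and lower on 2 KO and 7 WT arrays. Animal IDs end in a letter, which is J for the 4 brighter KO arrays (replicates 1 to 4) and G for the other 2 (replicates 5 and 6), and all WT mice have letter K. The labels do not say what the letters stand for, and because no letter is shared by the genotypes, letter and genotype cannot be told apart. For this reason lists and key genes were also fitted with this set as a block and in the low-background arrays by themselves, where the calls rest on 2 KO livers. The brighter WT array is replicate 1. Without it 2095 genes were higher and 2164 lower in KO livers, close to the counts with it given below.

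Mat1a itself was lower in every KO liver. It ran from 8.98 to 9.82 (median 9.61) in KO livers, against 11.93 to 12.33 (median 12.10) in WT livers. The change was -2.59 (SE 0.11, limma adjusted p = 2.6e-13), or 6.04-fold lower, and -2.51 with the background block. The probe was detected on all 14 arrays. Its place relative to the deletion is unknown here, so what signal remains in KO livers does not measure intact transcript.

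The genotypes separated along the first axis of a principal component analysis, which held 56.5% of the variance, with KO arrays between 22.4 and 38.0 and WT arrays between -34.6 and -9.81. Of 10831 features, 4359 (40.2%) were called, 2148 of them higher (19.8%) and 2211 lower (20.4%) in KO livers. The counts of risers and falls in the gene lists below stand against these shares. By at least 2-fold 569 changed (5.25%), of which 344 rose (3.18%) and 225 fell (2.08%). In 1800 called features (16.6%) no KO array overlapped a WT array. Within KO livers the median SD of a feature was 0.181, against 0.211 within WT livers. The balance of directions is set by quantile normalization, which gives all arrays 1 distribution. When arrays were instead scaled to the median of all probes the median change was 0.18 and 80.2% of calls were higher, and with the median of the probes past the detection filter it was -0.20 and 28.0%. A change is thus relative to the other genes. The median change of a gene list turned sign under 1 of these scalings in 28 of the 54 lists described below. It kept its sign under both in the remaining 26, which are the lists of choline oxidation, transsulfuration, phosphatidylcholine synthesis, male-biased and female-biased genes, lipid droplets, cholesterol synthesis, acute phase, iron, ATF4, heat shock, clock, glucocorticoid response, immediate early factors, amino acid catabolism, keratins, collagens, MHC class II, lymphocytes and neutrophils, adipocytes, acinar cells, erythroid cells, oxidative phosphorylation, both kinds of ribosomal protein and the proteasome.

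**Figure D1:**
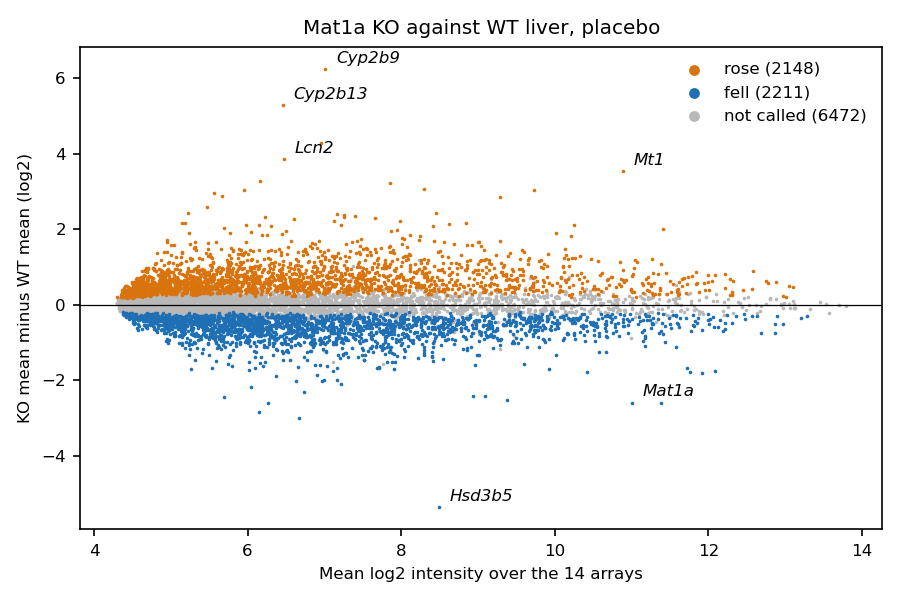
Change (KO mean minus WT mean, log2) of each of the 10831 features against its mean log2 intensity over the 14 arrays, with features that rose in orange, those that fell in blue and those not called in grey. Cyp2b9 (6.24) and Hsd3b5 (-5.36) lie farthest from 0 in the 2 directions.

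The 15 largest rises and 15 largest falls among called genes with a symbol and no overlap of arrays are plotted by array. Probes without a gene symbol were not ranked, although some changed as much. Among those that rose, Cyp2b9 and Cyp2b13 code for female-biased cytochromes P450 of mouse liver, and Lcn2 for an acute phase protein that binds bacterial iron carriers. Cyp2b9 ran from 10.27 to 10.996 (median 10.46) in KO livers, against 4.23 to 4.54 (median 4.29) in WT livers. It was at least 67.2-fold higher, with 1 of 8 WT arrays detected. Lcn2 ran from 8.09 to 10.05 (median 8.47) in KO livers, against 4.27 to 6.12 (median 4.64) in WT livers. The lowest KO value of Lcn2 was thus above the highest WT value, but KO livers spread widely, with the highest in replicate 2. Further down the order, Spink1, a trypsin inhibitor of the acute phase, was at least 6.79-fold higher, being detected on 2 of 8 WT arrays. Cox8b, a cytochrome c oxidase subunit known from muscle and brown fat, was at least 5.34-fold higher and Cyp2b23, a further Cyp2b cytochrome, at least 4.33-fold higher. The steroid 17-hydroxylase gene Cyp17a1 rose by 2.40 (SE 0.31, adjusted p = 3.5e-06), Creld2 by 2.38, Tceal8 by 2.34 and the carrier gene Slc16a5 by 2.32. Mt1, Ctse, Aqp4, Saa1, Asns and Cyp2b13 complete the 15 rises.

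The falls were led by Hsd3b5, a steroid dehydrogenase gene of male mouse liver, which ran from 4.63 to 8.35 (median 4.92) in KO livers, against 10.62 to 11.06 (median 10.75) in WT livers. In 5 of the 6 KO livers it lay at or below 5.03, while replicate 3 read 8.35. Tk1, for thymidine kinase, fell by 2.02 at its brightest probe, but its other probes gave -0.06 and -0.35, so the probes disagree. Rpa3, for a subunit of the single-strand DNA binding protein RPA, fell by 2.01 and the chromatin remodelling gene Bcl7c fell by 1.99. Obp2a, a lipocalin gene, fell by 1.90 and Mup20, a major urinary protein gene that codes for a male pheromone, by 1.78. The adult beta-globin genes Hbb-bs and Hbb-bt fell by 1.81 and 1.78 (the other probes of Hbb-bt -1.68, -1.10 and -2.65). Hbb-bs ran from 10.26 to 11.81 (median 10.76) in KO livers, against 12.09 to 13.44 (median 12.61) in WT livers, so all KO livers lay below all WT livers. Fam25c, Psmb5, Serpina1e, Mat1a, Angptl8, Cebpe and Mup5 complete the 15 falls. Probes of the Cyp2b, Mup, globin and Serpina1 genes can bind near-identical relatives, so values of single members are uncertain.

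**Figure D2:**
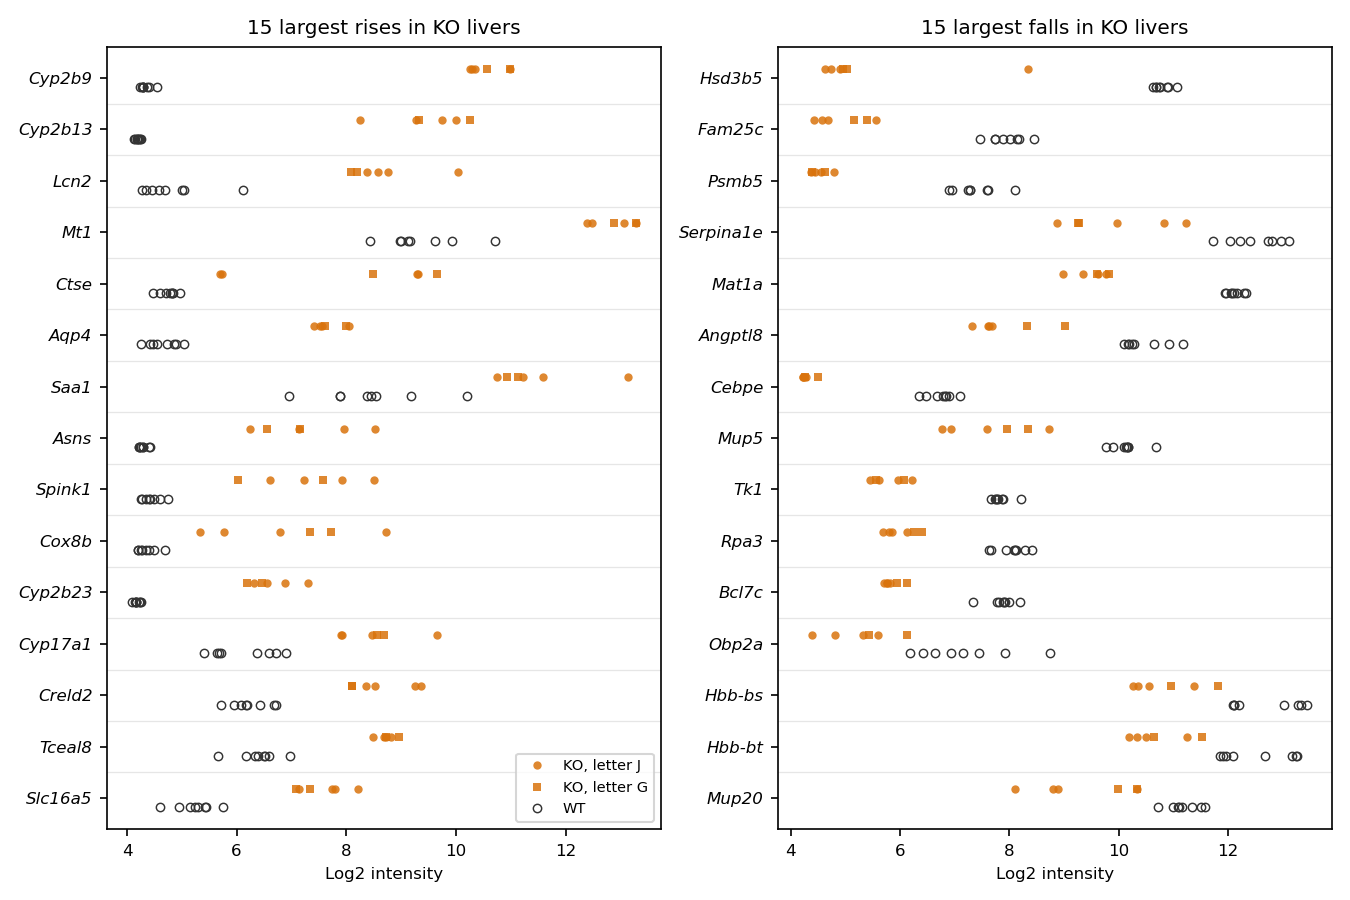
Log2 intensity of the 15 largest rises (left) and 15 largest falls (right) in each array, with KO livers above WT livers in each row, KO letter J as filled circles, KO letter G as filled squares and WT as open circles. No KO symbol overlaps the WT range of its row, and the single high KO point of Hsd3b5 is replicate 3 (8.35).

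In the methionine cycle, 4 of 9 measured genes rose and 2 fell (66.7% called, against 40.2% of all features). The median change was 0.34, or -0.01 when scaled to the probes past the filter. Bhmt, which remethylates homocysteine with betaine, ran from 8.20 to 9.73 (median 9.40) in KO livers, against 6.37 to 7.94 (median 7.36) in WT livers, a 3.60-fold rise (SE 0.22 on the log2 scale, adjusted p = 1.0e-06). Bhmt2, which uses S-methylmethionine, rose by 0.71. Mat2b, the regulatory subunit of the extrahepatic SAMe synthetase MAT II, fell by 0.98, with 6.30 ± 0.17 in KO livers and 7.28 ± 0.24 in WT livers (SD, n = 6 and 8), though its other probes gave -0.10 and -0.76. Gnmt, the glycine methyltransferase that disposes of excess SAMe, changed by 0.03 (adjusted p = 0.92) and Ahcy, which hydrolyses S-adenosylhomocysteine, by 0.34 (adjusted p = 0.095). At other probes Gnmt gave 0.47 and -0.72 and Ahcy -0.64, so the probes of each gene disagree. Mat2a, the catalytic subunit of MAT II, was not among the genes that passed the detection filter.

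Betaine itself comes from choline, and most measured enzymes of that route rose in KO livers. Of 5 measured genes 3 rose and 1 fell, with a median of 1.15, 1.03 under the block and 0.89 in the low-background arrays. Chdh, the first enzyme of choline oxidation, ran from 7.08 to 7.48 (median 7.31) in KO livers, against 6.03 to 6.37 (median 6.11) in WT livers. Dmgdh and Sardh, which strip methyl groups from dimethylglycine and sarcosine, rose by 1.65 and 1.21. All KO arrays lay above all WT arrays for these 3 genes. The peroxisomal sarcosine oxidase gene Pipox fell by 0.67, a call that ended with the block (-0.35, adjusted p = 0.070).

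Among enzymes that spend SAMe on small molecules, 2 of 10 rose and 1 fell (30% called, against 40.2% of all features). Their median was -0.10, or 0.12 when scaled to all probes. Gamt, which makes creatine, rose by 0.53 and Nnmt, which methylates nicotinamide, by 0.58, while Pemt, which makes phosphatidylcholine, gave -0.09 (adjusted p = 0.52). In transsulfuration and its branches 4 of 10 rose and 1 fell (50% called). Without KO replicate 2, KO replicate 3 or WT replicate 2, 2 rose. Cth, which releases cysteine, rose by 0.97 and Suox, which oxidizes sulfite, by 0.91. Csad, the decarboxylase of taurine synthesis, fell by 1.50 (SE 0.26, adjusted p = 0.00010). Cbs, which commits homocysteine to the pathway, gave 0.40 (adjusted p = 0.15), and 0.81 with the background block (adjusted p = 0.0062).

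In the folate cycle 4 of 9 measured genes rose and 2 fell (66.7% called, against 40.2% of all features). Shmt2, the mitochondrial serine hydroxymethyltransferase, ran from 8.13 to 8.77 (median 8.34) in KO livers, against 6.44 to 7.51 (median 6.88) in WT livers, a change of 1.51 (adjusted p = 2.1e-07). Mthfs, which returns 5-formyltetrahydrofolate to the folate pool, fell by 1.21. Shmt1, the cytosolic counterpart, gave -0.18 (adjusted p = 0.26). Of 9 polyamine and methionine salvage genes 2 rose and 2 fell (44.4% called, against 40.2% of all features). Odc1, the ornithine decarboxylase, rose by 0.87 and the spermidine synthase gene Srm by 0.93, while the salvage enzyme gene Apip fell by 0.78. Of the 9 genes of phosphatidylcholine synthesis 3 rose and 1 fell (44.4% called). They included rises of Pcyt1a (0.70), the rate-limiting enzyme of the CDP-choline route, and of the acyltransferase gene Lpcat3 (0.90), and a fall of the choline kinase gene Chkb (-0.71).

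The bias of sex-biased liver genes depends, in rodents, on the pattern of growth hormone secretion. Of 24 male-biased genes 13 fell and 2 rose (62.5% called, against 40.2% of all features), with a median of -0.62 that was -0.55 with the block and -0.49 in low-background arrays. Mup21, a major urinary protein gene, fell by 1.77, the complement gene C8b by 0.83 and the glutathione transferase gene Gstp1 fell by 1.68 (-1.30 and -0.93 at its other probes). Cyp4a12a, a fatty acid hydroxylase gene of male liver, did not follow, with 10.16 to 11.28 (median 10.47) in KO livers and 8.64 to 10.69 (median 10.003) in WT livers (change 0.73, adjusted p = 0.10). Its relative Cyp4a12b ran from 8.81 to 9.93 in KO livers, against 7.62 to 8.69 in WT livers, so each KO liver lay above each WT liver. Of the 2 risers of the male-biased list, 1 rose at least 2-fold. Of 13 female-biased genes 5 rose and 0 fell (38.5% higher, against 19.8% of all features), with a median of 0.61. Besides the Cyp2b genes and Cyp17a1 these were Ntrk2, a neurotrophin receptor gene (2.11), and the hepcidin gene Hamp2 (1.54), which ran from 8.55 to 11.19 (median 9.70) in KO livers, against 7.16 to 9.40 (median 8.42) in WT livers. Its groups overlapped, and the call ended without KO replicate 4 (1.29) or KO replicate 5 (1.31).

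Of 12 measured genes of the growth hormone pathway itself 2 rose and 1 fell (25% called, against 40.2% of all features), with a median of 0.01 that was -0.17 when scaled to the probes past the filter. The receptor gene Ghr gave 0.10 (SE 0.09, adjusted p = 0.41; -0.24 with adjusted p = 0.047 when scaled to the probes past the filter) and Socs2, a target that feeds back on it, 0.27 (adjusted p = 0.43). Igf1, the secreted growth factor, fell by 0.37, a call that did not hold with the background block (-0.29, adjusted p = 0.057) and that its other probe (0.41) did not share. Igfals, which holds IGF1 in the circulation, rose by 0.73, and the signal transducer gene Stat5a by 0.39, a call that ended without KO replicate 3, 5 or 6 (0.33 to 0.36).

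Xenobiotic enzymes moved in both directions. Of 32 cytochromes P450 of families 1 to 3, 13 rose and 6 fell (59.4% called, against 40.2% of all features). Their median was 0.15, or -0.13 when scaled to the probes past the filter. Cyp2d26 rose by 1.39, Cyp2c50 by 1.23 and Cyp2a12 by 0.66, while Cyp2c67 fell by 1.25. Cyp3a11, the main inducible steroid and drug hydroxylase of mouse liver, fell by 1.11 and ran from 10.29 to 11.79 (median 10.78) in KO livers, against 11.44 to 12.66 (median 12.08) in WT livers. Cyp2b10, the marker target of the receptor CAR, was at least 1.66-fold higher (adjusted p = 0.0023), with 0 of 8 WT arrays detected. Cyp1a2 rose by 0.57 and Cyp2e1 by 0.42, which the scaling to probes past the filter took to -0.019. Cyp2b9 and Cyp2b13 were at least 67.2-fold and 31.3-fold higher, with 1 and 0 of 8 WT arrays detected, above the other members named here.

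Of 20 glutathione transferase genes 8 rose and 6 fell (70% called, against 40.2% of all features). Gstt3 rose by 1.59, Gstm2 by 1.17 and Gstm1 by 0.99 (its other probe 0.15). Gsta1 ran from 6.47 to 9.05 (median 7.78) in KO livers, against 5.49 to 7.77 (median 6.44) in WT livers, a rise of 1.39 with overlap. Of 17 genes of glutathione synthesis and of the oxidative stress factor NRF2 7 rose and 2 fell (52.9% called). Their median was 0.19, or -0.00038 when scaled to the probes past the filter. Risers included the carboxylesterase gene Ces2g (1.39), the heme oxygenase gene Hmox1 (0.93), the export pump gene Abcc3 (0.72) and Nqo1 (0.43), a quinone reductase gene used as an NRF2 marker, whose call ended with the block (0.32, adjusted p = 0.080). Gss, glutathione synthetase, fell by 0.67, and Gclm, which modulates the first enzyme of the route, gave -0.32 (adjusted p = 0.060).

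Of 18 glucuronosyl- and sulfotransferase genes 6 rose and 3 fell (50% called, against 40.2% of all features). In the low-background arrays 2 rose and 1 fell. Both synthases of the sulfate donor PAPS rose, Papss2 by 0.89 and Papss1 by 0.91, and so did Ugt1a1, which conjugates bilirubin (0.99). The flavin monooxygenase gene Fmo1 ran from 9.50 to 10.55 (median 10.01) in KO livers, against 8.12 to 8.99 (median 8.65) in WT livers (change 1.32, and 0.65 at its other probe), and Fmo5 rose by 1.05. These were among the 5 risers of 14 oxidase and carboxylesterase genes (64.3% called), of which 4 fell, among them Ces1f (-0.54). Without KO replicate 2, 2 of these genes fell.

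Lipid droplet genes rose more often than they fell in KO livers. Of 21 measured, 11 rose and 2 fell, with a median of 0.45 that was 0.25 in the low-background arrays, where 7 rose. Cidea, a droplet fusion protein of brown fat and steatotic liver, ran from 4.84 to 7.89 (median 6.46) in KO livers, against 4.14 to 4.57 (median 4.21) in WT livers, and was at least 3.74-fold higher, with 1 of 8 WT arrays detected. Its KO values spread widely, with the lowest in replicate 2 (4.84) and the highest in replicate 3 (7.89). Bscl2, for the droplet assembly protein seipin, rose by 1.003, Fitm1 by 0.96 and Cideb, which loads very-low-density lipoprotein (VLDL) with lipid, by 0.95. Plin2, the constitutive droplet coat, rose by 0.60 (adjusted p = 0.011).

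Lipoprotein lipase and its regulators did not move one way. Of 14 genes of fatty acid uptake 4 rose and 5 fell (64.3% called, against 40.2% of all features). Lpl ran from 7.55 to 9.40 (median 8.72) in KO livers, against 6.58 to 7.62 (median 7.11) in WT livers. Angptl8, an inhibitor of lipoprotein lipase made after feeding, ran from 7.32 to 9.01 (median 7.66) in KO livers, against 10.09 to 11.18 (median 10.26) in WT livers, so every KO liver lay below every WT liver. Apoc2, the activator of the lipase, fell by 1.24 (its other probe -0.34) and Gpihbp1, its endothelial anchor, by 0.86.

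In fatty acid synthesis 6 of 23 genes rose and 3 fell (39.1% called, against 40.2% of all features). In the low-background arrays 1 rose and 3 fell. The synthase gene Fasn gave 0.07 (SE 0.08, adjusted p = 0.55), and its regulator Srebf1 0.15 (adjusted p = 0.62), or 0.60 with the background block (adjusted p = 0.015). Scaling to the probes past the filter gave Fasn -0.21 (adjusted p = 0.044). Elovl1, an elongase of very long chains, rose by 1.42 (0.96 and 0.19 at its other probes), Lpin2, a phosphatidate phosphatase, by 1.46 at its brightest probe (0.05 and 0.17 at the others) and Agpat2 by 0.78. The malic enzyme gene Me1 fell by 0.67 and Elovl3 by 0.73. Of 35 genes of fatty acid oxidation and its regulator PPARA 10 rose and 5 fell (42.9% called). Ppara rose by 0.54, the omega-hydroxylase gene Cyp4a31 by 1.95 and the peroxisomal thiolase gene Acaa1b by 0.68, whereas Acot1, an acyl-CoA thioesterase that PPARA induces, fell by 1.25 (its other probe -0.63).

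Genes of cholesterol synthesis and other targets of the regulator SREBP2 went up where they were called. Of 21 measured, 11 rose and 0 fell, with a median of 0.39, 0.41 with the block and 0.38 in low-background arrays. The risers numbered 7 with the block and 7 in low-background arrays. Dhcr7, the last enzyme of the pathway, ran from 6.15 to 7.04 (median 6.35) in KO livers, against 5.22 to 5.90 (median 5.38) in WT livers. Sqle, squalene epoxidase, rose by 0.74 and Tmem97, a sterol-regulated membrane protein gene, by 0.53. Srebf2 itself gave 0.06 (adjusted p = 0.75).

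Apolipoproteins and VLDL assembly genes had 4 risers and 4 falls among 21, shares of 19.1% and 19.1% against 19.8% and 20.4% over all features. With the background block 1 rose and in the low-background arrays 0. Without KO replicate 1, 2, 4 or 6 or WT replicate 6 or 8 the risers were 1 or 2. Apob, the structural protein of VLDL, gave 0.37 (adjusted p = 0.11) and Mttp, which lipidates it, 0.08 (adjusted p = 0.71). Sar1b, which carries large lipoproteins out of the endoplasmic reticulum, fell by 0.76 and Apoa5, which lowers triglycerides, by 0.48. In bile acid handling 7 of 21 rose and 4 fell (52.4% called, against 40.2% of all features). Cyp8b1, which sets the share of cholic acid, rose by 1.08 and Acox2, of side-chain oxidation, by 1.18. Cyp7a1, the rate-limiting enzyme, fell by 0.63 and ran from 9.002 to 10.25 (median 9.74) in KO livers, against 9.41 to 11.12 (median 10.42) in WT livers. That call ended with the block (-0.52, adjusted p = 0.19) and without any of 9 single arrays, namely KO replicates 1, 2, 3 and 6 and WT replicates 1, 4, 6, 7 and 8 (-0.65 to -0.49). Cyp7b1, of the alternative route, fell by 1.26 and the bile acid receptor gene Nr1h4 by 0.75.

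Acute phase genes rose more often than they fell. Of 27 measured, 15 rose and 2 fell, with a median of 0.32, and in the low-background arrays 6 rose with a median of 0.23. Saa1, a serum amyloid gene, ran from 10.74 to 13.15 (median 11.18) in KO livers, against 6.96 to 10.20 (median 8.42) in WT livers. Its other probe gave 1.46. Serpina3n, a protease inhibitor gene, rose by 1.47 and the glycoprotein gene Lrg1 by 1.14. The 2 that fell were the mannose-binding lectin genes Mbl2 (-1.58) and Mbl1 (-0.74), which start the lectin pathway of complement. Mbl1 lies on chromosome 14, where it is the measured gene next to Mat1a on 1 side. Haptoglobin, from Hp, gave 0.15 at its brightest probe (adjusted p = 0.17), and 0.25 with the block (adjusted p = 0.048). The other probes of Hp gave 0.62 and 0.54.

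Metallothioneins bind zinc and copper. Mt1 ran from 12.39 to 13.28 (median 12.98) in KO livers, against 8.42 to 10.71 (median 9.15) in WT livers, and the probe of Mt2 showed 4.72 to 6.39 (median 5.02) in KO livers and 4.15 to 4.81 (median 4.31) in WT livers, so Mt1 separated the genotypes and Mt2 did not. Mt2 was at least 1.67-fold higher, with 3 of 8 WT arrays detected, and lost its call with the block (adjusted p = 0.16) or without KO replicate 4 (0.68). Slc39a4, a zinc importer gene, rose by 2.30, while Mtf1, the zinc-sensing factor that drives metallothionein genes, fell by 1.04. In all, 4 of the 10 measured genes of this list rose and 1 fell (50% called, against 40.2% of all features). A metal response element (TGCACNC or TGCGCNC) is held by 6 of the 8 with a RefSeq promoter, against 21.4% of all promoters. Among 16 genes of iron handling 9 rose and 2 fell (68.75% called). The ferritin genes Ftl1 and Fth1 rose by 1.25 and 0.47 and the transferrin gene Trf by 0.51, whereas the transferrin receptor gene Tfrc fell by 0.89. Hamp, which codes for hepcidin, gave 0.29 (SE 0.15, adjusted p = 0.14).

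The ATF4 and ER stress programmes are shown with promoter sequence, because their shared response elements are short and recognizable. ATF4 is a transcription factor made when amino acids run short or when the endoplasmic reticulum (ER) is stressed, and it binds elements that hold TGATGNAA. Genes of ER chaperones carry the ER stress response element, in which CCAAT and CCACG stand 9 bases apart. Both strands of the 250 bases before each gene's start in RefSeq (assembly GRCm38.p6) were searched, and capitals mark each match. The ATF4 element was found in 3.45% of 32851 promoters and the ER stress element in 0.113%. A match is a description of the letters, not a bound site. Asns (chr6:7693210-7693459, minus strand) and Chac1 (chr2:119350992-119351241, plus strand) are the listed ATF4 genes with the largest changes in that order, and Creld2 (chr15:88819396-88819645, plus strand), Hsp90b1 (chr10:86705445-86705694, minus strand) and Hspa5 (chr2:34771840-34772089, plus strand) hold the ER stress element.
Asns: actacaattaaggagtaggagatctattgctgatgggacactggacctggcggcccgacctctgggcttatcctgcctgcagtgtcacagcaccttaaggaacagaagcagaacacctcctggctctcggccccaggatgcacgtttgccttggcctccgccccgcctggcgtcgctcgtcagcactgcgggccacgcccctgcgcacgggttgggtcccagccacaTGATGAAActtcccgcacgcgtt
Chac1: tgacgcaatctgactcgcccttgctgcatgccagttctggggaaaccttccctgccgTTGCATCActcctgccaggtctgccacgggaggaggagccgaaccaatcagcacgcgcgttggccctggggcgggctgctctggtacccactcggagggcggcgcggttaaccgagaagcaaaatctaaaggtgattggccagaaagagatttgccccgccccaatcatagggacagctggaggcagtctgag
Creld2: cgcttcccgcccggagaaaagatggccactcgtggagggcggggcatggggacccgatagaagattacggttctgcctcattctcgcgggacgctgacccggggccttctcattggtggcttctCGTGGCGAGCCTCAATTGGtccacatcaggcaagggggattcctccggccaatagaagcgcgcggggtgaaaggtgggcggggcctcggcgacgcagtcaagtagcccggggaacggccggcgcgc
Hsp90b1: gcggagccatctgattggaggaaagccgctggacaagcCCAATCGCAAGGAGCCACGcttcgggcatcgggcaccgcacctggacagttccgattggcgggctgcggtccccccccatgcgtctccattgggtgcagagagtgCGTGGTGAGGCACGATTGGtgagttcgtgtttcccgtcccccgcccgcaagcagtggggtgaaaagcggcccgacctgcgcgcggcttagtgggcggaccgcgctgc
Hspa5: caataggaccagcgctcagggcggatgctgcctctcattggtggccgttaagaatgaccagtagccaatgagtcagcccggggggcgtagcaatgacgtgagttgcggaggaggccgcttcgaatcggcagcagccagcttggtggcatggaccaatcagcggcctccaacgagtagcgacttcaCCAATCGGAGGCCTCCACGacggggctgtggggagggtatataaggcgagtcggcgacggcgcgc

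Of 23 measured genes of the ATF4 response 14 rose and 2 fell, with a median of 0.43, 0.41 with the block and 0.34 in low-background arrays. The risers numbered 10 with the block and 5 in low-background arrays. Asns, asparagine synthetase, ran from 6.24 to 8.52 (median 7.15) in KO livers, against 4.21 to 4.41 (median 4.27) in WT livers, and was detected on 0 of 8 WT arrays. Chac1, which degrades glutathione, ran from 6.45 to 8.29 (median 6.98) in KO livers, against 4.45 to 6.52 (median 5.31) in WT livers, so the groups overlapped. Its change was 1.85, and 1.22 in low-background arrays (adjusted p = 0.097). The stress regulator gene Nupr1 rose by 1.60, the transcription factor gene Cebpb by 1.31 and Ddit3, which codes for CHOP, by 0.91. Atf4 itself gave 0.39 (adjusted p = 0.10, and -0.17 at its other probe) and the pseudokinase gene Trib3 0.26 (adjusted p = 0.27). The list shares Shmt2 with the folate cycle. Of 21 measured members with a promoter 9 hold the ATF4 element, as do 6 of the 12 risers with one.

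ER chaperone genes had 9 risers and 0 falls among 23 (39.1% called, against 40.2% of all features). By direction, 39.1% were higher and 0% lower, against 19.8% and 20.4% of all features. The median of the list was 0.34, with 0.09 in the low-background arrays and -0.02 when scaled to the probes past the filter. Of the 20 measured members with a promoter here, 7 hold the element, and so do 3 of the 9 risers. Creld2, a disulfide isomerase partner, ran from 8.10 to 9.37 (median 8.44) in KO livers, against 5.71 to 6.73 (median 6.18) in WT livers. Hsp90b1, the ER form of HSP90, rose by 1.24 (SE 0.22, adjusted p = 0.00013), whereas Hspa5, the central ER chaperone BiP, gave 0.17 (SE 0.10, adjusted p = 0.20) although its promoter holds the element too. The ER degradation genes Syvn1 and Sel1l rose by 1.45 and 0.79 (the other probe of Sel1l 0.19), and Xbp1 gave 0.37 (adjusted p = 0.15).

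Cytosolic and mitochondrial heat shock genes had 12 risers of 20 and 0 falls, with a median of 0.53, against 0.27 with the background block. Bag3, a partner of HSP70 in selective autophagy, ran from 9.47 to 10.74 (median 10.03) in KO livers, against 7.61 to 8.16 (median 7.95) in WT livers. The mitochondrial chaperonin gene Hspd1 ran from 8.62 to 9.46 (median 8.92) in KO livers, against 6.62 to 8.15 (median 7.13) in WT livers. All KO livers lay above all WT livers for both. Among 16 measured members with a promoter, 1 of the 9 risers, Hspd1, holds a heat shock element (alternating GAA and TTC blocks). Its co-chaperonin gene Hspe1, which was not called (0.20, adjusted p = 0.60), lies head to head with it, and the match in its overlapping promoter is the same stretch. The element was found in 0.466% of all promoters. The HSP90 partner gene Fkbp4 rose by 0.67 and Chordc1 by 0.76. Hspa1a, the inducible HSP70, was at least 1.44-fold higher (adjusted p = 0.00031), with 1 of 8 WT arrays detected.

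**Figure D3:**
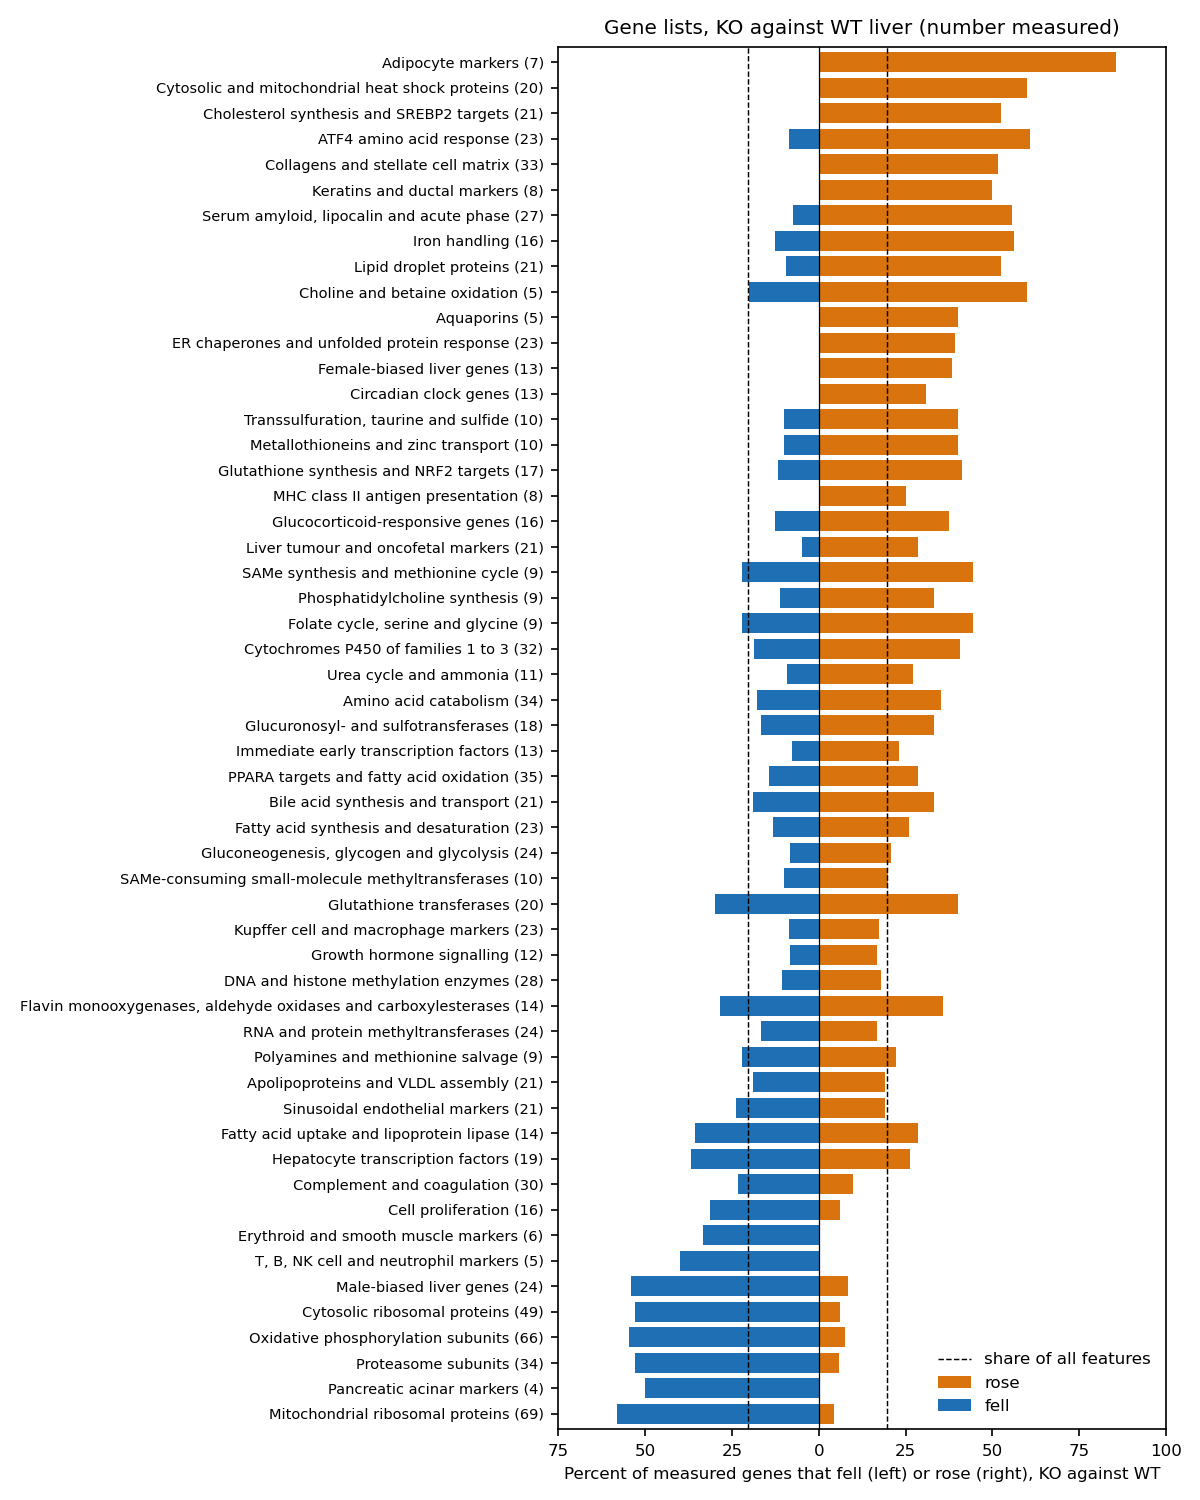
Percent of the measured genes of each described list that rose (orange, right of 0) and fell (blue, left of 0) in KO against WT livers, with the number measured beside each name and dashed lines at the shares over all features (19.8% higher and 20.4% lower). Adipocyte markers reach farthest to the right, and mitochondrial ribosomal protein genes farthest to the left.

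The sources used here give no hour of collection or feeding state, and their part in the next values was not tested. Of 13 clock genes 4 rose and 0 fell (30.8% called, against 40.2% of all features). By direction, 30.8% were higher and 0% lower, against 19.8% and 20.4% of all features. Per2, a repressor of the clock, ran from 7.16 to 7.99 (median 7.67) in KO livers, against 6.40 to 7.02 (median 6.72) in WT livers, and the nuclear receptor gene Rora rose by 0.93 and Clock by 0.58. Dbp, an output gene of high amplitude, gave -0.08 (SE 0.21, adjusted p = 0.80) and Nr1d1 0.24 (adjusted p = 0.47). Of 16 glucocorticoid-responsive genes 6 rose and 2 fell (50% called, against 40.2% of all features). Tsc22d3, a direct target, rose by 1.38 at its brightest probe (0.25 and 0.47 at the others), and Cdkn1a, a cell cycle inhibitor, was at least 2.14-fold higher, being detected on 0 WT arrays. The receptor co-chaperone gene Fkbp5 rose by 0.66, a call that ended with the block (0.68, adjusted p = 0.084) or without KO replicate 1 or 3 or WT replicate 1 or 6 (0.57 to 0.63). Among 13 immediate early genes Klf6 rose by 1.23, and Egr1 ran from 7.57 to 10.38 (median 9.03) in KO livers, against 6.20 to 9.89 (median 7.25) in WT livers (change 1.19, adjusted p = 0.15).

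Genes listed as hepatocyte transcription factors moved in both directions, with 5 risers and 7 falls among 19 (63.2% called, against 40.2% of all features). Cebpe, the only 1 of them to fall at least 2-fold, was at least 4.87-fold lower, with 1 of 6 KO arrays detected. Like Mat1a it lies on chromosome 14. Hnf4a, a master regulator of hepatocyte identity, rose by 0.98 and the nuclear receptor partner gene Rxra by 1.24. Cebpg fell by 0.73, and Cebpa gave 0.06 (adjusted p = 0.80). With the block 6 rose and 3 fell. In amino acid catabolism 12 of 34 rose and 6 fell (52.9% called). Ddc, aromatic amino acid decarboxylase, rose by 1.63 and Ivd, of leucine breakdown, by 1.20, while Tdo2, which opens tryptophan breakdown, fell by 0.70.

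In central nitrogen and carbon metabolism 36.4% of urea cycle genes and 29.2% of glucose genes were called, against 40.2% of all features. Of 11 urea cycle and ammonia genes 3 rose and 1 fell. Cps1 gave 0.15 (adjusted p = 0.40), Ass1 -0.28 (adjusted p = 0.14) and Glul -0.07 (adjusted p = 0.71). Rhbg, an ammonium channel of pericentral hepatocytes, rose by 1.54. Of 24 genes of glucose metabolism 5 rose and 2 fell, with Pck1 at -0.01 (SE 0.23, adjusted p = 0.99), G6pc at -0.32 (adjusted p = 0.21) and Gapdh higher by 0.79.

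Matrix genes rose in KO livers where they were called. Of 33 collagen and stellate cell genes 17 rose and 0 fell, with a median of 0.38, 0.32 with the block and 0.26 in low-background arrays, where 9 rose. Col4a2, a basement membrane collagen, ran from 6.29 to 7.23 (median 6.91) in KO livers, against 4.55 to 5.35 (median 4.91) in WT livers. Col15a1 rose by 0.78, Col18a1 by 0.74 and the gelatinase gene Mmp2 was at least 1.72-fold higher, with 3 of 8 WT arrays detected. Col1a1, the fibrillar collagen of scar, was at least 1.28-fold higher with 1 of 8 WT arrays detected, a call that ended with the block (0.24, adjusted p = 0.32) or without KO replicate 1 (0.41) or 2 (0.33). Acta2, the marker of activated stellate cells, gave 0.29 (adjusted p = 0.55). Of 8 measured keratin and ductal genes 4 rose and 0 fell, with Krt8 and Krt18, which hepatocytes share, at 1.66 and 1.19, and Krt7 at 0.07 (adjusted p = 0.58). The ductal factor gene Sox9 rose by 0.77, a call that ended without KO replicate 1 (0.71) or 5 (0.70). The ductal markers Krt19 and Epcam did not pass the detection filter.

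Liver tumour and oncofetal markers had 6 risers and 1 fall among 21 (33.3% called, against 40.2% of all features). Their median was 0.12, or -0.01 when scaled to the probes past the filter. Anxa2 and Anxa5, membrane-binding annexins, rose by 1.60 and 1.17, the galectin gene Lgals1 by 1.33, S100a11 by 1.12 and the guidance receptor gene Robo1 by 1.41. Anxa2 ran from 9.28 to 10.08 (median 9.57) in KO livers, against 7.86 to 8.27 (median 7.94) in WT livers. Gpc3, a marker of hepatocellular carcinoma, gave 0.02 (adjusted p = 0.91) and Igf2 -0.15 (adjusted p = 0.30), and the oncofetal genes Afp and H19 did not pass the detection filter.

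Markers of other cells were counted beside these. Of 21 sinusoidal endothelial markers 4 rose and 5 fell (42.9% called, near the 40.2% of all features). Among them Stab2 was higher by 0.74 and the junction gene Cldn5 lower by 1.51. Of 23 macrophage markers 4 rose, 1 of them at least 2-fold, and 2 fell (26.1% called, against 40.2% of all features). Their median was 0.19, or -0.03 when scaled to the probes past the filter. The 2 that fell were the Kupffer cell receptor gene Clec4f (-0.68, and -0.07 at its other probe) and the tetraspanin gene Cd9 (-1.74). Adgre1, for the pan-macrophage marker F4/80, gave 0.10 (adjusted p = 0.60). Of 8 genes of MHC class II presentation 2 rose and 0 fell (25% higher, against 19.8% of all features). Cd74, the invariant chain of MHC class II, ran from 7.60 to 9.49 (median 8.45) in KO livers, against 5.41 to 7.41 (median 6.80) in WT livers. The change was 1.75, against 1.85 and 0.68 at its other probes, and the class II genes H2-Ab1 and H2-Eb1 gave 0.48 (adjusted p = 0.11) and 0.56 (adjusted p = 0.055), with 0.89 for H2-Eb1 under the block (adjusted p = 0.0079). Only 5 of 31 lymphocyte and neutrophil markers passed the detection filter, of which 0 rose and 2 fell.

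Of 7 measured adipocyte markers 6 rose and 0 fell, with a median of 1.49. Cidec, Plin4, Cidea and Lpl are also in the lipid lists above, and the 4 defining markers Adipoq, Lep, Fabp4 and Plin1 did not pass the detection filter. Pparg, the adipogenic nuclear receptor gene, rose by 0.67 and Car3, a carbonic anhydrase gene that liver also expresses, by 0.93. Of 4 measured pancreatic acinar markers 2 fell, the elastase genes Cela1 (-1.53) and Cela2a (-1.01), while Pnlip and Cpa1 did not pass the filter. Of 6 erythroid and smooth muscle markers 2 fell, both beta-globin genes, and 0 rose (33.3% lower, against 20.4% of all features). Hba-a1, for alpha-globin, ran from 9.71 to 11.53 (median 10.47) in KO livers, against 9.93 to 12.42 (median 11.38) in WT livers (change -0.89, adjusted p = 0.065), and Alas2, the erythroid heme synthesis gene, gave 0.15 (adjusted p = 0.46), or 0.42 with the block (adjusted p = 0.024). The sources used here do not say whether livers were perfused, and the part of blood in these values was not tested.

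Genes for the large complexes of mitochondria, ribosome and proteasome fell more often than they rose. Of 66 subunits of oxidative phosphorylation 36 fell and 5 rose, with a median of -0.29. In the low-background arrays the counts were 10 and 3, with a median of -0.12. Cox7a1, the muscle-type subunit of cytochrome c oxidase, fell by 1.62 and the complex I genes Ndufb7 and Ndufb4 by 0.81 and 0.79. Of 69 mitochondrial ribosomal protein genes 40 fell and 3 rose, with a median of -0.33 and -0.20 in the low-background arrays. Mrpl48 ran from 6.54 to 7.48 (median 6.998) in KO livers, against 7.91 to 8.35 (median 8.18) in WT livers.

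Of 49 cytosolic ribosomal protein genes 26 fell and 3 rose, with a median of -0.30, -0.42 with the block and -0.37 in the low-background arrays. Rpl27 ran from 7.99 to 8.29 (median 8.22) in KO livers, against 8.76 to 9.32 (median 9.12) in WT livers, whereas Rplp0 gave -0.27 (adjusted p = 0.15). Many ribosomal protein genes have processed copies that their probes could also bind. Of 34 proteasome genes 18 fell and 2 rose, with a median of -0.24. The catalytic subunit gene Psmb5, which lies on chromosome 14 like Mat1a, fell by 2.83, and the core subunit gene Psma7, on another chromosome, by 0.91. Medians of these 4 lists were below 0 under both scalings, between -0.09 and -0.58. In proliferation 1 of 16 measured genes rose and 5 fell (37.5% called, against 40.2% of all features). The falls included the ribonucleotide reductase genes Rrm2 (-0.63) and Rrm1 (-0.28, or 0.078 when scaled to all probes), while Mki67, Top2a and Ccnb1 did not pass the detection filter.

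Other enzymes use SAMe on DNA, histones, RNA and protein. Of 28 DNA and histone methylation genes 5 rose and 3 fell (28.6% called, against 40.2% of all features), with a median of 0.01 that was -0.11 when scaled to the probes past the filter. The maintenance DNA methyltransferase gene Dnmt1 gave -0.07 (SE 0.11, adjusted p = 0.67) and Dnmt3b -0.02 (adjusted p = 0.91). The histone methyltransferase genes Setd1b and Kmt2a rose by 1.23 and 0.87 (the other probe of Kmt2a 0.06), and the demethylase genes Kdm3a and Kdm1a fell by 0.87 and 0.53. Of 24 RNA and protein methylation genes 4 rose and 4 fell (33.3% called). Without WT replicate 6, 2 rose, and without KO replicate 2 or WT replicate 7, 2 fell. Prmt1, the main arginine methyltransferase, fell by 0.80, Fto, an RNA demethylase, rose by 1.18, and Mettl3, which methylates mRNA, gave -0.0010 (adjusted p = 0.996), or 0.41 when scaled to all probes (adjusted p = 0.021).

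Of 30 complement and coagulation genes 7 fell and 3 rose (33.3% called, against 40.2% of all features). The clotting factor gene F11 fell by 0.91 and the complement genes C6 and C9 by 1.32 and 0.72 (the other probes of C9 0.13 and -0.53), while C4b rose by 0.83. Of 5 measured aquaporin genes 2 rose and 0 fell (40% higher, against 19.8% of all features). Aqp4, better known from brain and muscle, ran from 7.42 to 8.06 (median 7.58) in KO livers, against 4.25 to 5.03 (median 4.64) in WT livers and was detected on 5 of 8 WT arrays. Aqp9, the hepatocyte glycerol channel, rose by 0.29, a call that ended without KO replicate 1, 5 or 6 or WT replicate 1 (0.22 to 0.28) and took the value -0.10 when scaled to the probes past the filter, and Aqp8 gave 0.18 (adjusted p = 0.68).

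Mat1a lies on chromosome 14 of the mouse. Among the 40 measured genes within 20 measured genes on either side of Mat1a, 4 rose and 15 fell (47.5% called, against 43.2% of named genes on other chromosomes), and 3 changed at least 2-fold, all of them lower. Within 50 on either side 10 of 100 changed at least 2-fold (10.0%), against 4.84% of 186 genes farther out on the chromosome and 5.37% of 8225 genes elsewhere. Of the called genes within 20, only those with the largest changes are named here. Fam25c, of unknown role here, fell by 2.99 and ran from 4.42 to 5.56 (median 4.92) in KO livers, against 7.46 to 8.45 (median 7.95) in WT livers. The F-box gene Fbxo34 fell by 1.42 (-1.51 and -0.49 at its other probes) and Cgrrf1 by 1.03. Tmem260 fell by 0.998 (-0.08 at its other probe) and Glud1, which codes for glutamate dehydrogenase, by 0.89, while the other probes of Glud1 gave -0.06 and 0.48. Gch1, the first enzyme of tetrahydrobiopterin synthesis, fell by 0.81, while the tetraspanin gene Tspan14 rose by 0.89 and Ccser2 by 0.79. Mbl1, given above with the acute phase genes, is the measured gene next to Mat1a on 1 side and fell by 0.74. Chdh, Psmb5 and Cebpe, described above, lie within 50 genes too. Of others at that distance, picked after their values were seen, Lrtm1 rose by 2.12 and Ndrg2, a stress-responsive gene of the N-myc downstream-regulated family, fell by 1.58. Supt16, a subunit of the histone chaperone FACT, was at least 2.88-fold lower, with 0 of 6 KO arrays detected.

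**Figure D4:**
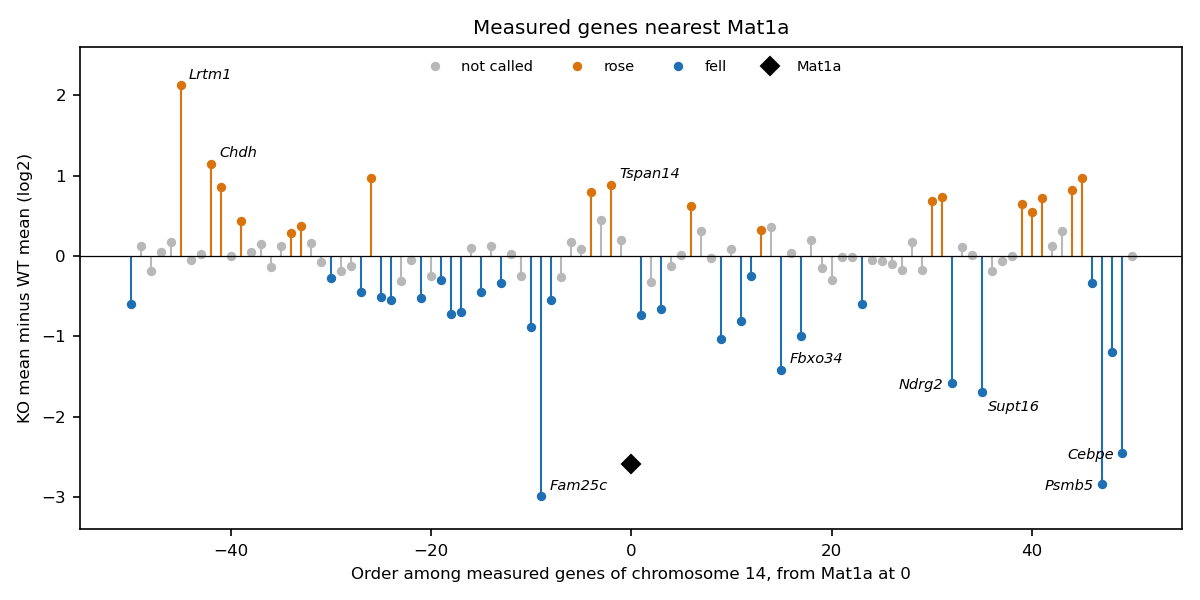
Change (KO minus WT, log2) of the 100 measured genes nearest Mat1a on chromosome 14, by their order from Mat1a at 0, with called genes in orange (higher) and blue (lower), others in grey and Mat1a as a black diamond. Mat1a itself (-2.59), Fam25c (-2.99) and Psmb5 (-2.83) lie lowest, and Lrtm1 (2.12) highest.

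Some genes varied far more among KO than among WT livers, although the SD was larger in KO livers for only 38.0% of features. Ranked by the ratio of SDs among genes detected on all 14 arrays, the first 8 were Hsd3b5, Sae1, Klc4, Yipf2, Scd1, Ppan, Cyp51 and Blm, with ratios between 4.98 and 9.60. For Klc4 and Yipf2 the KO SDs were 0.35 and 0.27, and the ratios came with small WT SDs (0.059 and 0.049). Sae1, a SUMO-activating enzyme gene, read 8.64 and 8.81 in replicates 4 and 6 and between 10.15 and 10.67 in the other 4 KO livers, against 8.66 to 8.94 (median 8.79) in WT livers. Scd1, the stearoyl-CoA desaturase that makes oleate, read 9.79 in replicate 1 and between 11.58 and 12.25 in the other 5 KO livers, against 11.49 to 11.94 (median 11.80) in WT livers. Ctse, an aspartic protease gene and one of the largest rises, was 5.70 and 5.73 in replicates 3 and 4 and at least 8.50 in the other 4. The high KO values of different genes were thus in different animals, as replicate 3 was high for Hsd3b5 and Cidea, and replicate 2 for Saa1 (13.15) and Asns (8.52). For Hsd3b5, Sae1, Scd1 and Ctse neither the ID letter nor the background set separates the KO values that stand apart.

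**Figure D5:**
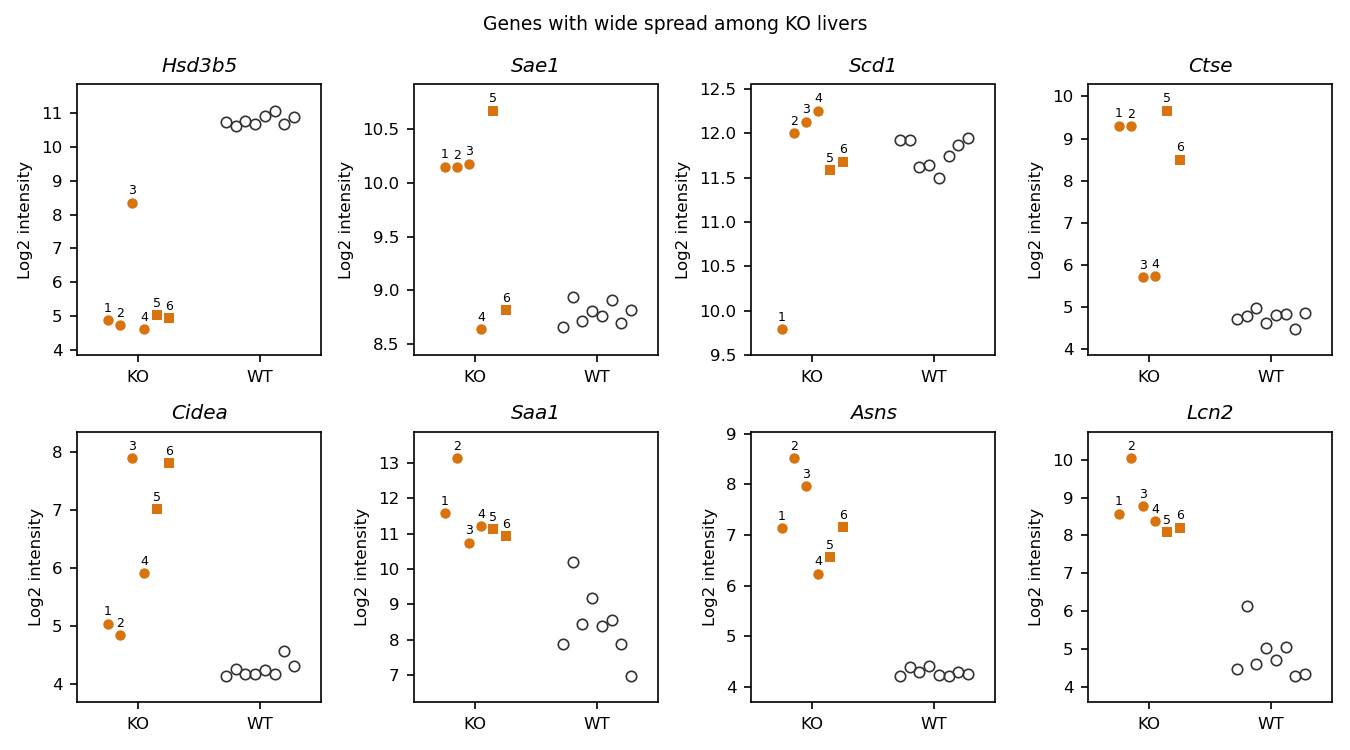
Log2 intensity of 8 genes in each KO liver (left, replicate number printed, filled circles letter J, filled squares letter G) and each WT liver (right, open circles). Hsd3b5 replicate 3 (8.35) and Scd1 replicate 1 (9.79) stand apart from the other KO livers.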

How the data were processed

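Mouse liver RNA was measured on Illumina BeadChips. The authors deposited a raw bead intensity and a detection p-value for 45281 probes per array, with no normalization recorded in the file headers, and log2 values for 17592 probes, used as an alternative. Recomputing showed these to be quantile-normalized log2 raw signals of probes with a detection p-value under 0.01 on at least 1 array. Intensities were corrected with limma 3.58.1 (R 4.3.3, neqc, background from detection p-values, offset 16), quantile normalized and log2 transformed. Probes detected (p under 0.05) on at least 5 of 19 arrays were kept (14295), and each gene took its brightest probe, giving 8529 named genes and 2302 unnamed probes. In the platform annotation 14737 of the 17592 probes had 1 gene symbol, 10 several and 2845 none. The table of RefSeq genes (GRCm38.p6) gave gene order on chromosome 14. One limma fit (lmFit, eBayes, two-sided) over all 19 arrays gave the contrast, so p-values measure the spread between animals. A gene detected on under 50% of a group's arrays has a lower bound as its fold, setting the brighter mean against the higher of the dim value and the lowest detected signal per array. Genes named were Mat1a, the 15 largest rises and falls without overlap, from 54 gene lists (1010 of 1406 members measured) their key members and up to 6 with the largest t, and the 8 genes with the highest ratio of SDs. Of the called genes within 20 of Mat1a, those with the largest changes were named. The comparison, gene lists and tests were chosen with earlier results of these data known. The fit was tested on simulated data. Alternatives were other background corrections, scalings, filters and probe rules, the background set as a block or by itself, the ID letters, array weights and leaving out each array.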

Additional observations from a re-analysis of the deposited data

Results flagged for a closer look

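In each of the 508 sets of KO or WT values of a gene named above, the highest and lowest array were compared with the rest by Dixon's test at the 95% level, and 1 array stood apart in 29 of them (5.71%), where chance gives about 1 in 20. Values are log2 intensities, with the range of the other arrays of the group after each.

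In KO replicate 1, Ces2g was highest at 8.67 (others 8.02 to 8.24), Fth1 was highest at 13.85 (others 13.23 to 13.37) and Scd1 was lowest at 9.79 (others 11.58 to 12.25). In KO replicate 1, Trf was highest at 13.66 (others 13.17 to 13.33). In KO replicate 2, Lcn2 was highest at 10.05 (others 8.09 to 8.77), Mmp2 was highest at 6.11 (others 5.06 to 5.41) and Saa1 was highest at 13.15 (others 10.74 to 11.59). In KO replicate 3, Hsd3b5 was highest at 8.35 (others 4.63 to 5.03) and Hspa1a was lowest at 4.32 (others 5.06 to 5.35). In KO replicate 5, Cebpe was highest at 4.50 (others 4.23 to 4.27) and Mttp was lowest at 5.90 (others 6.46 to 6.74). In KO replicate 6, Gamt was lowest at 10.13 (others 10.52 to 10.72). KO replicates 1 to 4 are high-background arrays with letter J and KO replicates 5 and 6 low-background arrays with letter G.

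In WT replicate 1, Bscl2 was lowest at 7.71 (others 8.57 to 9.06), Car3 was lowest at 7.93 (others 8.99 to 9.54) and Cbs was lowest at 6.87 (others 8.12 to 8.73). In WT replicate 1, Ccser2 was lowest at 6.42 (others 6.99 to 7.43), Cd74 was lowest at 5.41 (others 6.47 to 7.41) and Cyp8b1 was lowest at 9.46 (others 10.65 to 11.60). In WT replicate 1, Fkbp4 was lowest at 8.69 (others 9.04 to 9.36), Mup5 was highest at 10.68 (others 9.77 to 10.17) and Pipox was lowest at 6.84 (others 7.46 to 7.76). In WT replicate 1, Supt16 was lowest at 5.66 (others 5.93 to 6.11). In WT replicate 2, Lcn2 was highest at 6.12 (others 4.27 to 5.04). In WT replicate 4, Cdkn1a was highest at 4.34 (others 4.15 to 4.24) and Dmgdh was lowest at 4.75 (others 5.19 to 5.52). In WT replicate 6, Sel1l was lowest at 5.95 (others 6.52 to 6.92) and Tk1 was highest at 8.21 (others 7.66 to 7.88). In WT replicate 7, Cidea was highest at 4.57 (others 4.14 to 4.31) and Col18a1 was lowest at 9.83 (others 10.36 to 10.80). WT replicate 1, which holds 10 of the 17 among WT arrays, is the only WT array of the high-background set. Without it 2095 genes were higher and 2164 lower in KO livers.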

How the results depend on the processing

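Each alternative changed 1 choice and kept the rest, except that normexp without the detection p also took another offset, and that the authors' log2 values differ in background correction and in the features tested (10514). The counts of genes higher and lower in KO livers stayed within 1.5 times of 2148 and 2211 except as follows. With arrays scaled to the median of all probes there were 4006 higher and 990 lower, and with the median taken over the filtered probes there were 4600 lower. The low-background arrays alone (2 KO and 7 WT) gave 1005 and 974, and letter G animals alone (2 KO) 986 and 968, with fewer samples. Of the 4359 genes called, 3424 were also called in the same direction with the background set as a block, 1902 in the low-background arrays and 1878 with letter G animals. Genes changed at least 2-fold, 569 in the report, numbered 191 without background correction, 249 with normexp at an offset of 50, 190 in the authors' log2 values, 912 when scaled to all probes and 1356 in the high-background arrays, where the lone WT array is assumed to vary like the other groups. The larger of a list's counts of risers and falls moved by over 1.5 times with the block in 8 of the 54 lists, namely cholesterol synthesis (7 in place of 11), apolipoproteins (1 in place of 4), hepatocyte transcription factors (3 for 7), glucose metabolism (3 for 5), macrophages (2 for 4), MHC class II (4 for 2), lymphocytes and neutrophils (1 for 2) and proliferation (3 for 5). In the low-background arrays it did so in 34 lists. Leaving out 1 array at a time gave 1895 to 2182 higher, 1976 to 2213 lower, 512 to 641 changed at least 2-fold, and a change of Mat1a between -2.65 and -2.49. Mat1a passed the threshold under all settings run. Of the 205 named genes that were called, 114 kept their call and direction under all settings, 137 under all but the high-background arrays, and 194 under all that left out 1 array. Values that turned sign against a call were, when scaled to the probes past the filter, Aqp9 (-0.0991), Cyp2e1 (-0.0186), Fasn (-0.21) and Ghr (-0.24), when scaled to all probes, Mettl3 (0.41), Rrm1 (0.0783) and Yipf2 (0.0608), with the mean of a gene's probes, Igf1 (0.0183) and Yipf2 (0.00597), in the high-background arrays, Hspe1 (-1.07) and Igf1 (0.0233), and for Yipf2 in the low-background arrays (0.0188) and with letter G animals (0.0230). The cause of these shifts was not tested. No paired analysis was possible because each array is another animal, and replicate numbers were given in accession order. A probe near background has a compressed fold, so folds of dim genes are limited by signal over background.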
